A study of Homo sapiens with 4 samples.

Results

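Chromosome 12 carried 496 of the 5326 regions, 9.31%, over which the authors compared HNF4A and control chromatin immunoprecipitation in HCCLM3, an established human hepatocellular carcinoma cell line. The 496 were taken by chromosome alone, from 3 deposited tables that list the same regions, and no measured value entered that step. The list of regions itself may rest on reads of the libraries compared. The 4 libraries, 1 per group, were HNF4A in high glucose, IgG in high glucose, HNF4A in low glucose and IgG in low glucose. The labels' protocols describe stable overexpression lines of HCCLM3, made with virus from a CMV promoter vector that carried a full-length cDNA. They do not say which gene that was, which library came from which line, or the glucose concentrations, and they describe high-glucose medium for all 4 libraries. Nothing below has a replicate check. Every range in brackets is an exact 95% counting interval on the reads of 2 libraries, or of all 4 for a difference between ratios. Coordinates of regions are hg19, counted from 1, and each gene is the one that the authors list as closest. The labelled cell type could not be checked against marker genes, since only immunoprecipitated DNA was measured.

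HNF4A is a nuclear receptor that binds DNA as a homodimer and maintains the expression programme of hepatocytes. In chromatin immunoprecipitation, an antibody pulls down sheared chromatin and the DNA is sequenced, and a nonspecific IgG antibody shows how much of each place is recovered without a target. IgG recovery is not even along a genome. Chromosome 12 holds the AMPK genes PRKAG1 and PRKAB1, the upstream kinase gene CAMKK2, and the oncogenes CDK4 and MDM2.

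The RefSeq promoters of 4 closest genes are shown because these genes stood at the ends of the HNF4A over IgG ranking on chromosome 12. DUSP6 was highest in high glucose, CD163 was among the 8 highest in both glucose conditions, NEMP1 (listed in the files as TMEM194A) was among the 8 lowest in high glucose, and ARPC3 among the 8 lowest at both, all among regions whose level reached the median of all regions. Each is the 250 bases before the gene's start, on the minus strand of GRCh38.p14, 5′ to 3′, with CG dinucleotides in capitals. They lie at chr12:89352502-89352751 for DUSP6, chr12:7503778-7504027 for CD163, chr12:57078792-57079041 for NEMP1 and chr12:110450338-110450587 for ARPC3. Whether the measured regions cover these promoters was not established, since no hg19 genome was used.
DUSP6: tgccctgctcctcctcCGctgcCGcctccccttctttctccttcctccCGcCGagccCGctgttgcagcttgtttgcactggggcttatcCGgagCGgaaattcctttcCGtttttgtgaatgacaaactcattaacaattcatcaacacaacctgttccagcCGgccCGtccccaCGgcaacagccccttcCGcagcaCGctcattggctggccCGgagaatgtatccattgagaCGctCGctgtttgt
CD163: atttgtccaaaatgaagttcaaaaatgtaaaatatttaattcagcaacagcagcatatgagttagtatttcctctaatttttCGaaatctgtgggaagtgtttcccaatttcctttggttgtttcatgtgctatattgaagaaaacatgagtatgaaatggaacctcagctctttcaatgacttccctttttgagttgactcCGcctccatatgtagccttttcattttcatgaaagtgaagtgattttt
NEMP1: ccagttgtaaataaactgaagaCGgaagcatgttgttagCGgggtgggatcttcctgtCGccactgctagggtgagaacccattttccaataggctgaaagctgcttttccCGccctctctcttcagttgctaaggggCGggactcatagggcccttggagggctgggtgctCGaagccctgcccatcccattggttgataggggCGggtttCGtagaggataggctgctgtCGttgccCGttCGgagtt
ARPC3: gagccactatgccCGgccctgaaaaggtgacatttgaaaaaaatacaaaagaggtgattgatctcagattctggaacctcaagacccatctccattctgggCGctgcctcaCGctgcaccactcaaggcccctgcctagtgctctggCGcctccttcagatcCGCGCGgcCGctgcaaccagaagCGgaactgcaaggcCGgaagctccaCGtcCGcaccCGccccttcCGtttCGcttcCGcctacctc
DUSP6, ARPC3 and NEMP1 hold 16, 16 and 11 CG dinucleotides in these 250 bases, and CD163 holds 2.

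Regions ran from position 252781 to 133758728 of the chromosome. Their length was 239 to 5186 bp, with 1240.5 bp as the median, and 408 genes were listed as closest, 339 of them to a single region. The median gap between neighbours was 107 kb, and 33 of 495 gaps were under 10 kb. The widest gap, 4.24 Mb, lay between TMTC2 and MKRN9P, and the third widest, 3.15 Mb, spanned the centromere between ALG10 and ALG10B. The median region held 62 HNF4A reads and 37 IgG reads in high glucose, and 43.5 HNF4A reads and 25 IgG reads in low glucose. Summed over the 496 regions there were 34504 HNF4A and 20297 IgG reads in high glucose, against 24431 HNF4A and 14029 IgG reads in low glucose. Levels are given below as reads divided by the relative library size and by region length, called scaled reads per kb.

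Along the chromosome, IgG depth varied more than HNF4A depth in high glucose, and about as much in low glucose. In 14 windows of 10 Mb, the median HNF4A level in high glucose lay between 38.9 and 46.3 scaled reads per kb. The median IgG level in high glucose lay between 20.6 and 34.1, with the lowest values from 70 to 100 Mb and the highest from 110 to 120 Mb. The window from 50 to 60 Mb held the most regions, 81, with a median IgG level of 33.4. At low glucose the HNF4A medians ranged from 30.1 to 39.0 and the IgG medians from 16.5 to 22. The highest window was 1.19 times the lowest for HNF4A and 1.65 times for IgG in high glucose, and 1.30 and 1.33 times in low glucose. From 80 to 90 Mb, a stretch of 17 regions nearest to genes such as OTOGL, KITLG and DUSP6, the median log2 ratio of HNF4A over IgG was 1.12 in high and 1.20 in low glucose. From 110 to 120 Mb, over 39 regions, it was 0.28 in high and 0.76 in low glucose. These 2 windows have the highest and the lowest median of the 14 in high glucose, were picked for that, and are given as a description. The ratio of their pooled reads was 0.89 and 0.53 in high glucose and 0.94 and 0.78 in low glucose.

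**Figure D1:**
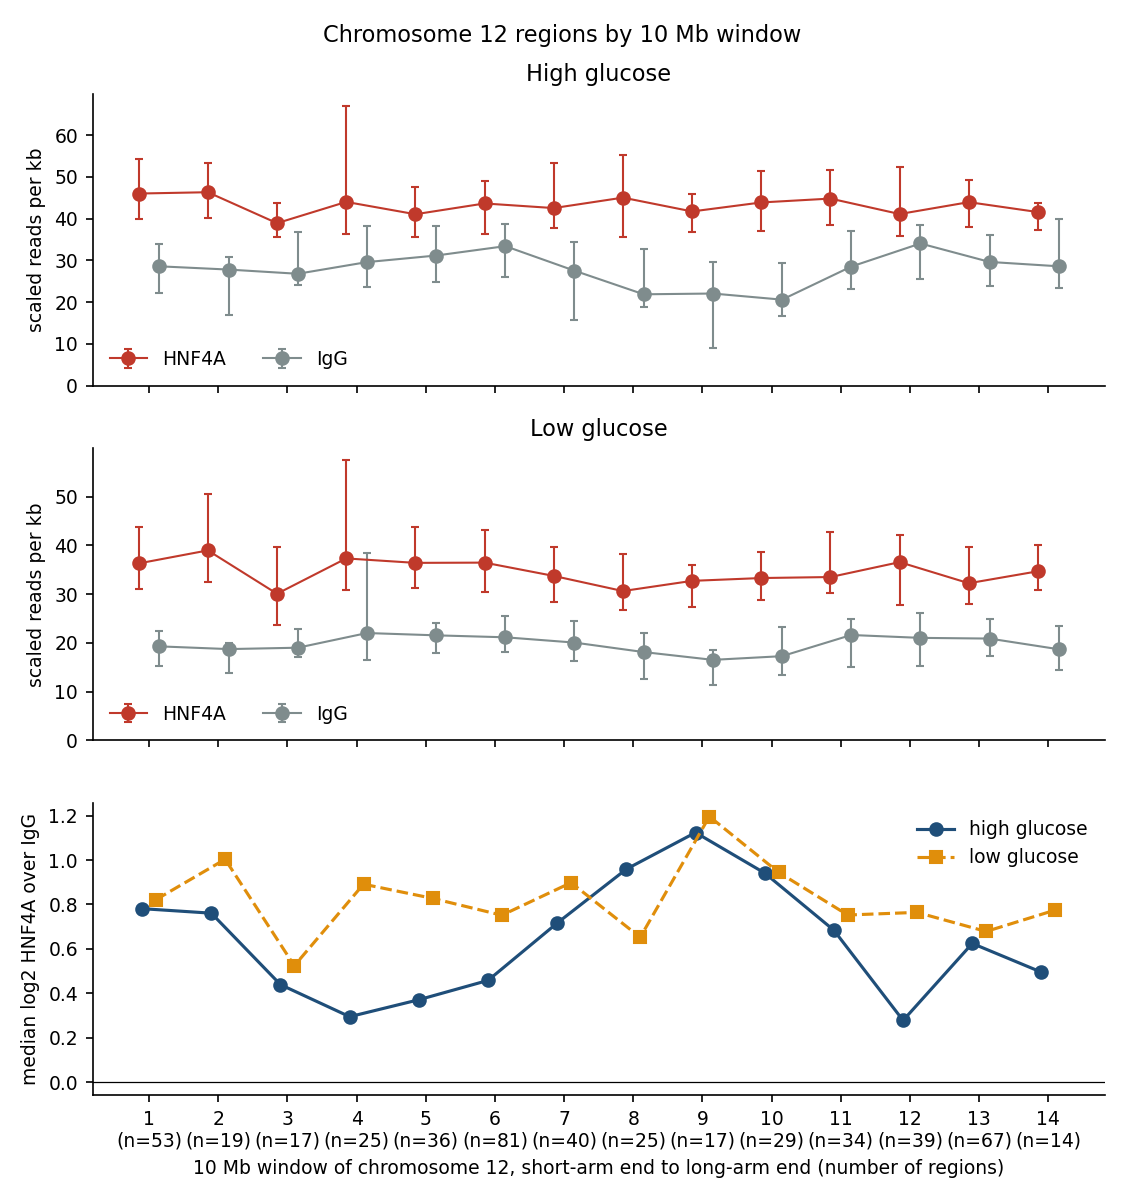
Median scaled reads per kb of HNF4A (red) and IgG (grey) in 10 Mb windows of chromosome 12 in high and low glucose, with bars from the first to the third quartile over regions, and below them the median log2 HNF4A over IgG per window. HNF4A medians in high glucose stay between 38.9 and 46.3 while IgG dips to 20.6 in window 10, and the ratio peaks in window 9.

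Against the 4830 regions elsewhere, chromosome 12 stood higher in IgG than in HNF4A. The median IgG level was 28.8 scaled reads per kb on chromosome 12 against 24.6 elsewhere in high glucose, and 20 against 16.7 in low glucose, which are 1.17 and 1.20 times as high. For HNF4A the medians were 43.4 against 41.6 in high glucose and 34.6 against 33.0 in low glucose, 1.05 times as high in each case. Among the 22 chromosomes with at least 20 regions, chromosome 12 ranked 5 from the top in IgG level and 4 in HNF4A level in both glucose conditions. Chromosomes 7, 8, 19 and 20 were the ones above it in IgG, at 29.2 to 29.8 in high glucose. Region density, between the first and the last region, was 3.72 per Mb, behind chromosomes 19 and 17. Regions were longer here too, with a median of 1240.5 bp against 1009.5 bp elsewhere, second to chromosome 7. The direction of these comparisons rests on the median: summed reads over summed length gave 0.748 times the level elsewhere for IgG in high glucose. The largest number of reads in a region was 338 on chromosome 12 and 18380 elsewhere, and the deepest 1% of all regions, 53 in number, held none from chromosome 12. Without those 53, which were singled out after their values were seen, the summed IgG level was 1.03 times that elsewhere in high and 1.01 times in low glucose, and the summed HNF4A level 0.982 and 0.993 times. Regions are not replicates of a condition, so no test was run between chromosomes and nothing is called particular to this one.

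**Figure D2:**
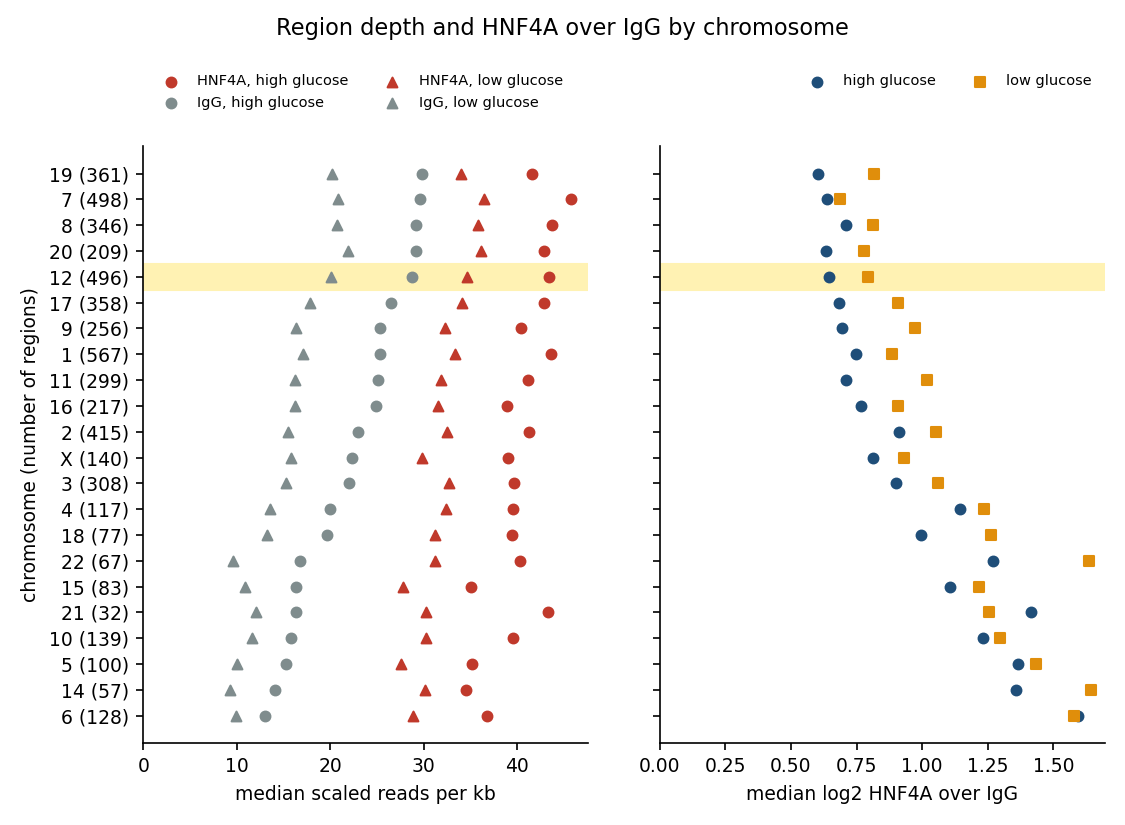
Median scaled reads per kb of each library (left) and median log2 HNF4A over IgG (right) for the 22 chromosomes with at least 20 regions, ordered by IgG level in high glucose, with chromosome 12 shaded. Chromosome 12 sits 5 from the top in IgG, and its median ratios of 0.65 and 0.80 are close to those of chromosomes 7, 8, 19 and 20.

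The ratio of HNF4A over IgG was lower here than elsewhere at the median. On chromosome 12 the median was 0.65 on the log2 scale in high glucose against 0.81 elsewhere, and 0.80 against 0.97 in low glucose, which rank 19 and 20 among the 22 chromosomes. Within regions of 1000 to 2000 bp, a length limit set after seeing the data, the medians were 0.56 against 0.71 in high and 0.75 against 0.86 in low glucose. The log2 ratio of summed reads turned the order round, at 0.62 (0.59 to 0.64) against 0.53 (0.53 to 0.54) in high glucose and 0.77 (0.74 to 0.80) against 0.53 (0.52 to 0.54) in low glucose. It went back to 0.70 and 0.80 elsewhere once the 53 deepest regions were left out. HNF4A exceeded IgG in 424 of the 496 regions in high glucose, 85.5%, beside 84.2% of all 5326 regions, and in 457 in low glucose, 92.1%, beside 91.5%, shares near the background. At least a 2-fold excess was seen in 158 regions in high glucose, 31.9%, where 41.6% of all 5326 regions reached it, and in 185 in low glucose, 37.3%, beside 46.8%. The counting interval lay above 0 in 253 regions in high glucose (51.0%, beside 55.2% of all regions) and in 267 in low glucose (53.8%, beside 56.2%). HNF4A was at least 2-fold below IgG in 2 regions in each glucose condition (background 1.05% in high and 0.488% in low glucose). The interval lay below 0 in 7 regions in high glucose (background 2.07%) and in 0 in low glucose (background 0.713%). In the tables that the authors deposited, none of the chromosome 12 regions passed an FDR of 0.05 in any comparison, and 0% of all regions passed it. The authors' deposited tables list an unadjusted p under 0.05 for 18 regions above IgG in high glucose (background 4.96%) and 13 in low glucose (background 3.04%). They list 0 below IgG at either (background 0.0188% in high and 0% in low glucose). These directions depend on the scaling: with libraries scaled by their reads over all regions, HNF4A exceeded IgG in 267 regions in high and 335 in low glucose. Once the median of all regions, 0.79 in high and 0.94 in low glucose, was set to 0, 211 regions were higher in high glucose and 202 in low glucose, fewer than the 285 and 294 that were lower.

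DUSP6, which encodes a phosphatase that switches off ERK kinases, led in high glucose among the 337 regions whose level reached the median of all regions. The region from 89769039 to 89770158 held 112 HNF4A reads against 10 IgG reads in high glucose, or 3.34 as a log2 ratio (2.41 to 4.44). At low glucose the same region held 51 against 13 reads, 1.95 (1.05 to 2.95). Both other DUSP6 regions were above IgG in both glucose conditions, at 1.18 and 1.02 in high and 1.85 and 1.11 in low glucose. Next came the long noncoding RNA gene LINC00936, further along the long arm, with 73 HNF4A against 9 IgG reads in high glucose, 2.87 (1.87 to 4.06), and 38 against 6 in low glucose, 2.64 (1.38 to 4.17). LOC101927901 had 196 against 27 reads in high glucose, 2.71 (2.13 to 3.35), and 67 against 34 in low glucose, 0.95 (0.34 to 1.59). In the authors' deposited table it had the lowest p of the chromosome in high glucose, 0.000796, with an FDR of 0.848. LOC100130075, LIMA1, C12orf74, CD163 and PHLDA1 made up the 8 highest, at 2.68 down to 2.18. LIMA1 encodes an actin-binding protein, and its region stood at 2.31 (1.48 to 3.25) in high and 2.09 (1.02 to 3.32) in low glucose.

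At low glucose the highest of the 351 regions that reached the median level was nearest to KCNMB4, a regulatory subunit of a calcium-activated potassium channel. It held 85 HNF4A against 22 IgG reads in high glucose, 1.80 (1.11 to 2.55), and 58 against 7 in low glucose, 3.02 (1.89 to 4.4). CD163, the gene of the macrophage haemoglobin scavenger receptor, followed with 79 against 15 reads in high glucose, 2.25 (1.44 to 3.15), and 56 against 8 in low glucose, 2.78 (1.70 to 4.06). LOC102723544, near the short-arm end, stood at 2.04 (1.41 to 2.73) in high and 2.54 (1.68 to 3.51) in low glucose. The remaining 5, MIR135A2, SP7, LRCOL1, DUSP16 and FIGNL2, stood at 2.53 down to 2.16 in low glucose. SP7 had 70 HNF4A reads in high and 46 in low glucose, beside 37 and 8 IgG reads. DUSP16, a phosphatase gene of the JNK pathway, had 79 HNF4A reads in high and 57 in low glucose, beside 36 and 11 IgG reads. CAMKK2 had the lowest p of the chromosome in low glucose in the authors' deposited table, 0.00879, with an FDR of 0.820.

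Both glucose levels gave at least a 2-fold excess in 113 of the 496 regions, 22.8%, beside 31.4% of all regions, and an interval above 0 in 194 (39.1%, background 41.1%). A 4-fold excess at both was seen in 13 regions (2.62%, background 5.05%). Those 13 lay nearest to LOC102723544, CD163, METTL20, LIMA1, XRCC6BP1, SLC16A7, SRGAP1, IL22, TMTC2, LINC00936, LOC102724933, STAB2 and HCAR3. No limit on level was applied to them. IgG reads in high and low glucose were 25 and 13 for LOC102723544, but 3 and 3 for TMTC2, 4 and 4 for XRCC6BP1 and 3 and 7 for LOC102724933. In low glucose the intervals of TMTC2 and XRCC6BP1 began at 0.69 and 0.72, below 4-fold. SLC16A7 encodes a monocarboxylate transporter, and its region held 40 HNF4A against 7 IgG reads in high glucose and 25 against 5 in low glucose. STAB2 encodes a scavenger receptor of liver sinusoidal endothelium, and its region held 76 against 16 and 41 against 10 reads. HCAR3, a receptor for hydroxylated fatty acids, had 40 against 8 reads in high and 52 against 12 in low glucose. Across the 496 regions the ratios in high and low glucose had a Spearman correlation of 0.647, given as a description of regions that share 4 libraries. Among regions with fewer reads, KITLG, the gene of the KIT ligand, reached 4.55 (1.95 to 9.91) in high glucose with 26 HNF4A reads and 1 listed IgG read, which may stand for 0 or 1, and stood at 0.51 (-0.68 to 1.77) in low glucose.

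**Figure D3:**
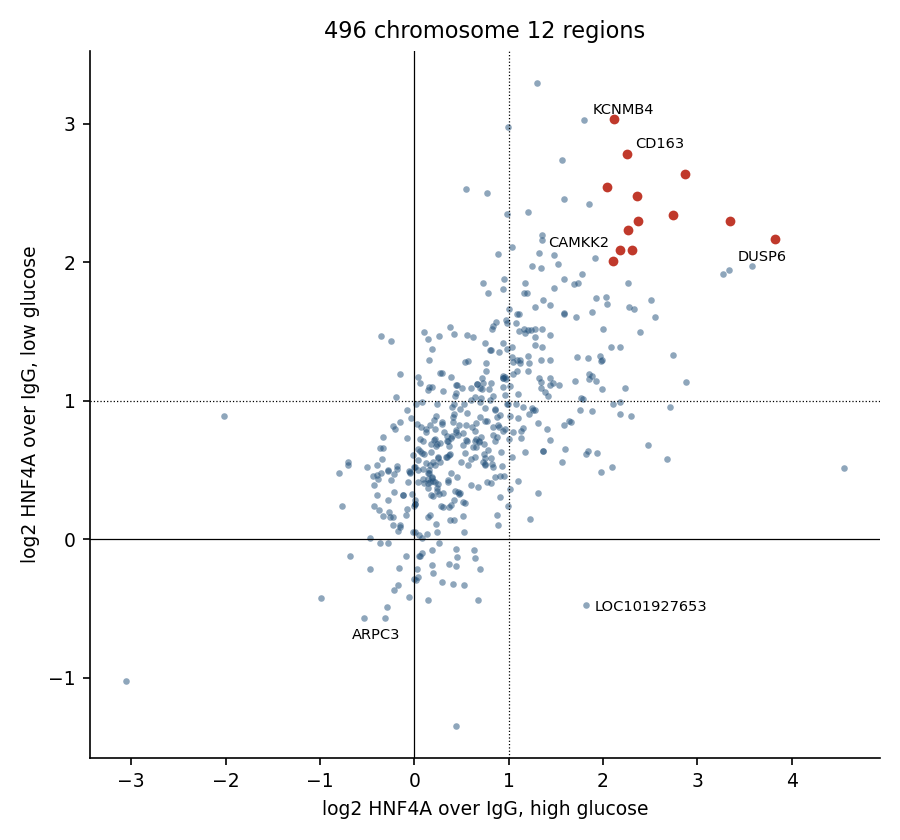
Log2 HNF4A over IgG in high glucose (horizontal) against low glucose (vertical) for the 496 chromosome 12 regions, with solid lines at equal reads and dotted lines at 2-fold. The 13 red points are at least 4-fold above IgG in both glucose conditions, and LOC101927653 lies above 0 in high glucose and below 0 in low glucose.

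The median ratio fell from the regions with the least IgG to those with the most. IgG is the denominator of the ratio, so sorting by it builds in such a fall, which is given as a description. In the 124 regions with the least IgG, at a median of 14.5 scaled reads per kb over both glucose levels, the median log2 ratio was 1.71 in high and 1.44 in low glucose. In the 124 with the most IgG, at 33.3, it was 0.01 and 0.41. The HNF4A level of these same sets was 40.3 and 38.7 scaled reads per kb. Regions with the least IgG were also shorter, with a median of 950 bp against 1326 bp in those with the most.

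The lowest ratios in high glucose, under the same limit on level, lay nearest to LOC283440, TMEM194A, KRT8, ARPC3, TCHP, TROAP, CCDC64 and MMAB, at -0.79 to -0.43. KRT8, which encodes a keratin of simple epithelia including hepatocytes, had 45 HNF4A against 65 IgG reads in high glucose, -0.68 (-1.26 to -0.11), and 28 against 30 in low glucose, -0.13 (-0.92 to 0.67), while its other region stood at 1.1 (0.60 to 1.62) and 0.87 (0.33 to 1.44). ARPC3, a subunit of the actin-nucleating Arp2/3 complex, had 33 against 43 reads in high and 26 against 38 in low glucose, and both intervals included 0. At low glucose ARPC3 and MYL6B were lowest, both at -0.57, followed by SRGAP1, LOC101927653, SVOP, ALG10B, FMNL3 and C12orf57, at -0.49 to -0.33. SRGAP1, a GTPase-activating protein gene of SLIT-ROBO signalling, was the closest gene both to this region, with 50 HNF4A against 69 IgG reads in low glucose, and to one of the 13 regions above, from 64255780 to 64256676, with 25 against 3. HNF4A was below IgG in both glucose conditions in 14 regions (2.82%, background 4.06%).

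**Figure D4:**
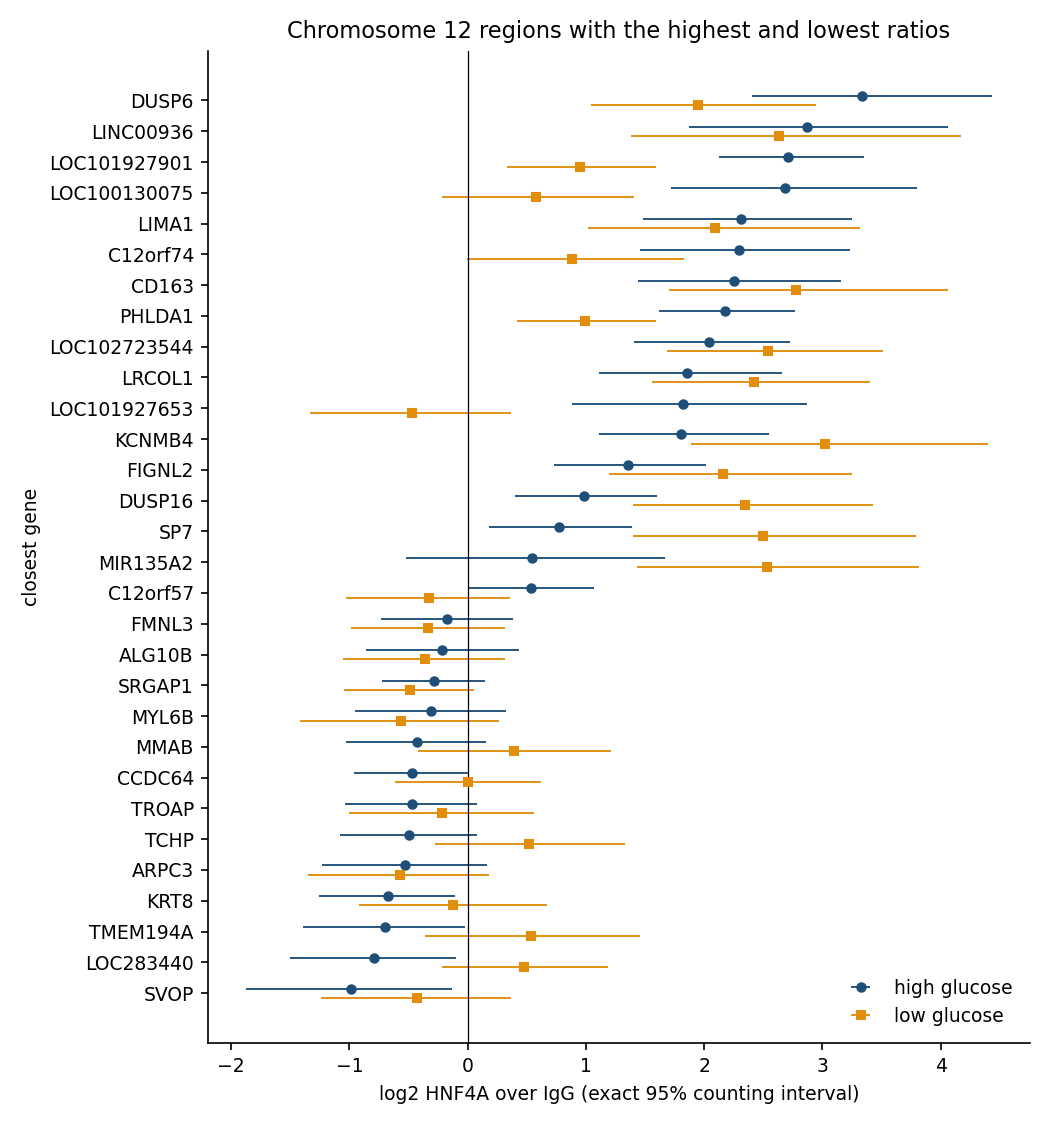
Log2 HNF4A over IgG in high (circles) and low glucose (squares) with exact 95% counting intervals, for the regions with the 8 highest and 8 lowest ratios at either glucose level among those that reached the median level. Of the regions shown, DUSP6 stands highest in high glucose, at 3.34. SVOP, which reached the median level only in low glucose, stands lowest in high glucose, at -0.99.

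HNF4A in high over low glucose had a median log2 ratio of 0.36 on chromosome 12, against 0.35 elsewhere, and IgG a median of 0.53 against 0.51. HNF4A was higher in high glucose in 420 of 496 regions, 84.7%, beside 81.8% of all regions, and IgG in 404, 81.5%, beside 77.9%. Centred on the median of all regions, these counts became 250 and 257. At least a 2-fold excess of HNF4A in high glucose was seen in 17 regions, 3.43%, beside 6.78% of all regions, and of IgG in 73, 14.7%, beside 19.4%. Counting intervals for HNF4A lay above 0 in 136 regions (27.4%, background 25.8%) and for IgG in 159 (32.1%, background 26.2%). They lay below 0 in 3 regions for HNF4A (0.605%, background 0.826%) and in 5 for IgG (1.01%, background 1.93%). A 2-fold deficit was seen in 4 regions for HNF4A (0.806%, background 0.713%) and in 10 for IgG (2.02%, background 3.38%). Both HNF4A and IgG were at least 2-fold higher in 2 regions (0.403%, background 1.54%). The log2 ratio over IgG, high minus low glucose, had a counting interval above 0 in 14 regions (2.82%, background 4%) and below 0 in 31 (6.25%, background 7.42%). LOC101927901 led the 330 regions that reached the median level, with 196 HNF4A reads in high and 67 in low glucose, 1.41 (1.01 to 1.84), while IgG had 27 and 34. In the authors' deposited table its p was 0.00328, the lowest of the chromosome in this comparison, with an FDR of 0.914. AMN1 followed with 94 and 33 HNF4A reads, 1.37 (0.79 to 1.99), and 25 and 16 IgG reads. MSRB3, a methionine sulfoxide reductase gene, had 65 and 29 HNF4A reads, 1.03 (0.38 to 1.71), and 8 and 13 IgG reads. C12orf79, C12orf74, C12orf57, CPNE8 and RILPL2 were the others of the 8 highest, at 1.17 to 1.07. In the other direction HCAR3, TBX3, POP5, TMBIM4, RAN, CAPS2, WIBG and ARL1 stood at -0.51 to -0.26, and each of the 8 intervals included 0. Below this comparison's level limit, MIR135A2 had 21 HNF4A reads in high and 47 in low glucose, -1.30 (-2.11 to -0.53). The authors' deposited table lists 8 regions higher (background 4.39%) and 2 lower (background 0.225%) at an unadjusted p under 0.05.

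The deepest region of the chromosome for its length lay beside the centromere and was about as deep in IgG as in HNF4A. This region of 309 bp, nearest to ALG10, an alpha-1,2-glucosyltransferase gene of N-glycan assembly, from 34846783 to 34847091, had 112 HNF4A against 100 IgG reads in high glucose and 93 against 112 in low glucose. That is 330 and 301 scaled HNF4A reads per kb, with 326 and 369 for IgG. The 5 regions nearest to ALG10 and the 4 nearest to ALG10B on the other side ranged from -2.02 to 0.23 over IgG in high glucose and from -0.44 to 1.20 in low glucose. The gene names mark only the closest gene here, as regions listed under ALG10 start at 34175057 and at 34837516 to 34847846. Outside this stretch, the highest HNF4A levels averaged over both glucose levels were at CD163, with 106 and 82.5 scaled reads per kb in high and low glucose, and CAMKK2, with 80.2 and 72.2, where IgG stood at 22.3 and 12 and at 32.0 and 17.3. MMP17, ATP2A2 and TNFRSF1A followed, at 81.0 to 87.9 for HNF4A in high glucose and 57.5 to 60.7 in low glucose.

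Regions of 1 gene did not always behave alike. PHLDA1, a nuclear protein gene induced by growth factors, had 4 regions, with log2 ratios of 1.60, 1.02, 2.18 and 0.46 in high glucose and 0.65, 0.36, 0.99 and 0.34 in low glucose. All 4 held more HNF4A reads in high glucose, at 0.64 to 0.92 for high over low glucose, and each interval was above 0, beside 81.8% of all regions that were higher and 25.8% with an interval above 0. The median of all regions was 0.36 on this scale. For IgG the same regions stood at -0.26 to 0.63. The 4 LINC00936 regions ranged from 0.37 to 2.87 in high and from 0.23 to 2.64 in low glucose.

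Counts of list members above IgG are read against the share of all regions above IgG, 84.2% in high and 91.5% in low glucose. Counts of members with a region are read beside the protein-coding RefSeq promoters of chromosome 12, 287 of closest genes and 478 of others. The lists were chosen with earlier results of these data known, so these counts are a description and show no enrichment or depletion. Of 14 liver transcription and nuclear receptor genes, 10 had a region, all 10 above IgG in both glucose conditions, with medians of 0.78 and 0.75 beside 0.65 and 0.80 for the chromosome and 0.79 and 0.94 for all regions. The interval was above 0 in 6 of the 10 in high and 5 in low glucose, where the background is 55.2% and 56.2% of all regions. STAT6, which carries interleukin 4 signals, stood at 1.25 and 0.74 in its regions in high glucose and at 1.97 and 0.61 in low glucose. NR1H4, the bile acid receptor gene, was closest to no region.

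The AMPK and mTOR list had 6 of 11 members with a region, 5 above IgG in each glucose condition (background 84.2% and 91.5%), with medians of 0.57 in high and 0.78 in low glucose. CAMKK2 had 161 HNF4A against 58 IgG reads in high glucose, 1.33 (0.89 to 1.79), and 132 against 31 in low glucose, 2.06 (1.49 to 2.68). The AMPK gamma subunit gene PRKAG1 had 54 against 59 reads in high and 37 against 37 in low glucose, -0.27 (-0.83 to 0.28) and -0.03 (-0.72 to 0.67), and PRKAB1 was closest to no region. The autophagy genes GABARAPL1, ATG101 and ULK1 stood at 0.61, 0.75 and 0.35 in high and 1.0, 0.85 and 0.71 in low glucose.

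Of carbohydrate genes 4 of 11 had a region, all above IgG in high glucose and 3 in low glucose (background 84.2% and 91.5%), with medians of 0.79 and 0.71. GAPDH, a glycolytic enzyme gene, lay in the longest region of the chromosome, with 338 HNF4A against 149 IgG reads in high glucose, 1.04 (0.75 to 1.32), and 204 against 133 in low glucose, 0.59 (0.27 to 0.92). TPI1 stood at 0.54 (0.12 to 0.98) in high and 0.82 (0.33 to 1.32) in low glucose. SLC2A14, a glucose transporter gene, had 32 against 6 and 22 against 6 reads. LDHB, a lactate dehydrogenase subunit, was the one with a 2-fold excess of HNF4A in high over low glucose, at 54 against 24 reads, 1.03 (0.32 to 1.79).

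Lipid and sterol genes had 8 of 22 members with a region, 6 above IgG in high and 7 in low glucose (background 84.2% and 91.5%), with medians of 0.63 and 0.77. MVK, the mevalonate kinase gene of cholesterol synthesis, had 253 HNF4A against 102 IgG reads in high glucose, 1.16 (0.83 to 1.51), and 149 against 51 in low glucose, 1.52 (1.05 to 2.01). Its neighbour MMAB, which acts on vitamin B12, had 46 against 56 and 32 against 24 reads, and both intervals included 0. SCARB1, the high-density lipoprotein receptor gene, stood at 0.85 (0.23 to 1.5) and 0.94 (0.10 to 1.82). Amino acid and secreted hepatocyte genes had 3 of 21 with a region, among them HPD of tyrosine breakdown, at 1.44 (0.94 to 1.97) in high and 0.72 (0.15 to 1.30) in low glucose, and ALDH2 at 0.15 (-0.27 to 0.57) and 0.40 (-0.12 to 0.93).

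RAS and MAPK genes had 14 of 27 members with a region, 12 above IgG in each glucose condition (background 84.2% and 91.5%), with medians of 0.58 and 0.91. DUSP6 and DUSP16 are described above. ERBB3, a receptor of neuregulins, stood at 0.73 (0.36 to 1.11) in high and 1.13 (0.69 to 1.58) in low glucose. The cell cycle and 12q13-15 list had 18 of 31, with 16 above IgG in high and 15 in low glucose (background 84.2% and 91.5%) and medians of 0.41 and 0.68. MDM2, the ubiquitin ligase gene of p53, had 155 against 66 and 91 against 29 reads, 1.09 (0.66 to 1.52) and 1.62 (1.01 to 2.28). CDK4 had 72 against 65 and 40 against 48 reads, 0.00 (-0.50 to 0.51) and -0.29 (-0.93 to 0.35). Chromatin genes had 12 of 26, with medians of 0.26 and 0.78. HDAC7 had 105 HNF4A against 92 IgG reads in high and 103 against 45 in low glucose, and KMT2D, a histone methyltransferase gene, 70 against 57 and 61 against 22. In both, the HNF4A reads were close between the glucose levels and the IgG reads in high glucose were over 2-fold those in low glucose.

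Genes placed in the lists of other lineages were among the closest genes as well. Of 23 blood and stromal genes 5 had a region, all above IgG in both glucose conditions (background 84.2% and 91.5%), with medians of 1.42 and 1.51. They were CD163, IL22, CD9, ITGB7 and CD27, and IL22, an interleukin gene, had 48 against 9 and 43 against 9 reads. Of 28 neuron and muscle genes 2 had a region, PTPRO at 1.59 and 0.82 and NELL2 at 0.18 and 0.63. Of 17 zinc finger genes 3 had a region, with medians of 0.64 in high and 0.45 in low glucose. Set against the medians of all regions, 0.79 and 0.94, the blood and stromal medians were higher in both glucose conditions, and the neuron and muscle median of 0.88 in high glucose. The RAS and MAPK medians lay below, but with all regions of a gene averaged they were 0.79 and 0.98. Averaged in the same way, the blood and stromal medians were 1.21 and 1.51. They rest on 5 genes of a list chosen with earlier results of these data known. Closeness does not show that a gene is regulated from a region.

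**Figure D5:**
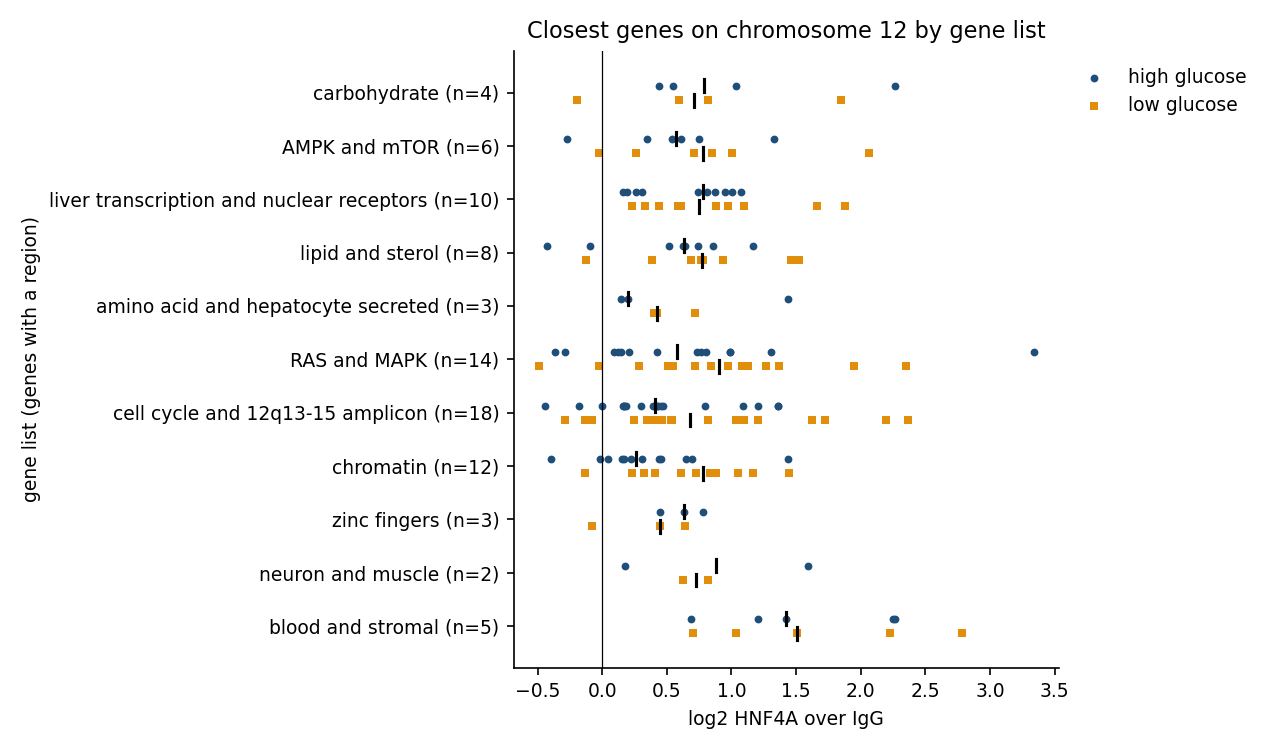
Log2 HNF4A over IgG in high (circles) and low glucose (squares) of the closest genes in each list, each gene by its region with the most HNF4A reads, with black bars at the list medians. The blood and stromal list has medians of 1.42 and 1.51, and the chromatin list 0.26 and 0.78.

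RefSeq matched 393 of the 408 closest genes by symbol or older symbol. Of these, 351 were protein-coding, 24 long noncoding and 12 microRNA genes. The 423 regions nearest to protein-coding genes had median log2 ratios of 0.54 in high and 0.74 in low glucose, the 28 nearest to long noncoding RNA genes 1.04 and 1.13, and the 15 nearest to microRNA genes 1.04 and 1.14. IgG stood at 25.6, 18.9 and 23.5 scaled reads per kb over these 3 kinds, in that order. Promoters of 308 closest genes were in RefSeq, each 300 bases from 250 before to 50 after the start. The 287 protein-coding ones among them held a median of 25 CG dinucleotides, against 17 in 478 other protein-coding promoters of chromosome 12 and 26 in 2635 closest genes of other chromosomes. The 50 regions whose closest gene had fewer than 10 CG, like CD163 above, had a median log2 ratio of 1.25 in high and 1.12 in low glucose, with 18.5 scaled IgG reads per kb. The 314 regions with 10 or more stood at 0.48 and 0.71, with 26.4. Over the 364 regions, CG number had a Spearman correlation of 0.185 with IgG level and -0.0505 with HNF4A level, as a description.

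Motifs were searched in those promoters on both strands. CAAAGTCCA, a sequence bound by HNF4A, was in 0 of 308 promoters of closest genes and in 0.359% of all 27305 RefSeq promoters, and the related CAAAGTTCA in 0 and 0.300%. CAAAGGTCA, which other nuclear receptors also bind, was in 1, that of DIP2B, 0.325% beside 0.410%. These counts say only which letters stand in these windows, which need not be the measured regions.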

How the data were processed

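Chromatin immunoprecipitation libraries for HNF4A and IgG, 1 per group, were compared by the authors in 3 deposited tables. The submitters' processing notes name hg19 as the build, and HOMER, DiffBind, MACS, Bowtie 1.1.2 and bcl2fastq as tools, without settings. Per the file headers, the deposited levels and folds are log2 values, and each region has a p-value and an FDR from the authors. The sources used here do not say how the list of regions was drawn up, so it may rest on reads of the 4 libraries compared.

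Without the log, the levels of the authors were whole multiples of 1 step per library within 0.01 for 100% of values, which gave reads and relative library sizes of 1.10 (HNF4A, high glucose), 0.993 (IgG, high), 1 (HNF4A, low) and 0.982 (IgG, low). Total depth is unknown. The sides of the table of HNF4A alone were settled by those reads. The lowest value on chromosome 12 is 1 read, which may stand for 0 or 1. Log2 ratios of scaled reads equal the deposited folds, and exact 95% intervals are Clopper-Pearson. They cover counting error only, since copies made in the 15 PCR cycles are not independent molecules. With 1 library per group no model was fitted, and the intervals compare libraries, not conditions. The difference of 2 ratios has an exact conditional interval. The recovery of reads and the Clopper-Pearson intervals were tested on simulated reads without PCR copies. The conditional interval was not tested in this way.

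Regions on chromosome 12 were described by 10 Mb windows, against other chromosomes, and by closest gene. Named regions are, per comparison, the 8 highest and 8 lowest ratios, 1 per gene, at or above the median level of all regions, the 8 with the most reads per kb, genes with at least 4 regions, members of 11 gene lists, and others chosen after their values were seen. A gene in a list stands by its region with the most HNF4A reads. Values of some list members are not reported here. The members and lists were chosen with earlier results of these data known. Alternatives were other scalings, centring, read and length minimums, thresholds and window widths. RefSeq names and promoters are of GRCh38.p14. Python 3.11.15, numpy 2.4.6, scipy 1.17.1 and pandas 2.3.3 were used.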

Additional observations from a re-analysis of the deposited data

Results flagged for a closer look

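In 45 chromosome 12 regions the counting interval of the difference between the HNF4A over IgG ratios, high minus low glucose, excluded 0: it was above 0 in 14 (background 4%) and below 0 in 31 (background 7.42%). Of those whose level reached the median of all regions in at least one glucose condition, 15 had ratios on opposite sides of IgG, and they were picked out for that. LOC101927653 was the one with HNF4A above IgG in high and below it in low glucose, with 47 against 12 reads in high and 22 against 30 in low glucose, a difference in log2 ratio of 2.30 (0.98 to 3.64). The other 14 stood below IgG in high and above it in low glucose. In each of these 14 the counting interval of HNF4A in high over low glucose included 0. That of IgG in high over low glucose was above 0 in all of them but LOC283440, beside 26.2% of all regions. The cause was not tested. POP5, a subunit of ribonuclease P, had 39 HNF4A against 45 IgG reads in high and 45 against 16 in low glucose, a difference of -1.82 (-2.95 to -0.71). LIN7A, a scaffold of cell junctions, had 41 against 44 and 44 against 16 reads, -1.68 (-2.81 to -0.58). For LOC283440 the difference was -1.27, for TMEM194A -1.23 and for RAN, the GTPase of nuclear transport, -1.07. AACS stood at -1.04, TCHP at -1.02, NCKAP5L at -1.0, NT5DC3 at -0.99 and PPTC7 at -0.91. TUBA1B, a tubulin gene, stood at -0.85, a region of ATP2A2 at -0.82, PTGES3 at -0.81 and CNPY2 at -0.78. These differences compare 4 libraries, not conditions, and were not adjusted for the number of regions. The share of all regions that meet the rule for the 15 was not counted, so the 15 and their directions are a description. Over all 5326 regions the difference was below 0 in 3104 and above 0 in 2222, and the side of IgG depends on the scaling.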

How the results depend on the processing

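No paired analysis was possible because each group has 1 library and the labels give no replicate numbers. Scaled by reads over all regions, HNF4A exceeded IgG in 267 regions of chromosome 12 in high glucose (78 at 2-fold), against 424 (158) as reported, and scaled by reads off chromosome 12 in 270 (78). At low glucose the 2-fold counts became 70 and 72 under these scalings, against 185. Centred on the median of all regions, the majority turned in both glucose conditions, with 211 regions higher in high glucose (60 at 2-fold) and 202 in low glucose (35). For HNF4A in high over low glucose the counts were 274 (6 at 2-fold), 275 (6) and, centred, 250 (4), against 420 (17), and for IgG the 2-fold counts were 21, 26 and, centred, 11 (257 higher), against 73. With both IgG libraries pooled, HNF4A exceeded IgG in 465 regions in high glucose (200 at 2-fold) and in 408 in low glucose (121 at 2-fold). The median log2 ratios were then 0.85 in high and 0.54 in low glucose, against 0.65 and 0.80 as reported. The order of the glucose levels thus turned round, from more regions above IgG in low glucose to more in high glucose. At 1.5-fold and at 4-fold, 259 and 39 regions exceeded IgG in high glucose, 323 and 30 in low glucose, 124 and 0 were higher in high glucose for HNF4A, and 219 and 2 for IgG. The authors' deposited tables hold 18, 13 and 10 regions with a p under 0.05 before adjustment, and 0 with an FDR under 0.05. A minimum of 20 reads or of 300 bp kept the reported counts of regions higher and 2-fold higher within 1.5 times in the 4 comparisons.

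The comparison with other chromosomes turned with summed reads over summed length, at 0.793 (HNF4A) and 0.748 (IgG) times the level elsewhere in high glucose and 0.762 and 0.642 in low glucose. Without the deepest 1% of regions these became 0.982, 1.03, 0.993 and 1.01. Without the windows from 50 to 60 and 120 to 130 Mb, IgG medians were 1.13 and 1.16 times those elsewhere, and in regions of 1000 to 2000 bp 1.12 and 1.14, with 1.03 for HNF4A in high glucose. The median log2 ratio over IgG, -0.17 and -0.18 relative to that elsewhere, was -0.10 and -0.13 without those windows, -0.11 in low glucose in regions of 1000 to 2000 bp, and turned to 0.085 and 0.25 with summed reads, or -0.076 and -0.028 without the deepest 1%. The length limit, the deepest 1% and the ratio of summed reads were chosen after the data were seen. The highest over the lowest window in 5 and 20 Mb windows was 1.34 and 1.13 for HNF4A and 1.98 and 1.54 for IgG in high glucose, and 1.98 and 1.16 for HNF4A and 1.94 and 1.26 for IgG in low glucose. With all regions of a gene averaged, 1 of 44 list medians moved, that of RAS and MAPK genes over IgG in high glucose, to 0.79 against 0.58, and none changed sign. The cause of these shifts was not tested. Read numbers limit single regions, as IgG in low glucose had a median of 25 reads.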
